A study of Homo sapiens with 32 samples.

Results

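The genes described here are 31 genes of cholesterol and fatty acid synthesis. They were chosen by symbol, as the rows of the deposited expression table that carry the listed names, out of 19345 symbols in all. They comprise 6 genes of the mevalonate pathway, 11 genes of the path from squalene to cholesterol, the thiolase ACAT2, 5 regulators or sterol carriers and 8 genes of fatty acid synthesis and desaturation. Genes entered the tests if 6 or more libraries reached 1 TPM, and 30 of the 31 did. FADS1, a fatty acid desaturase, was listed at 0 in every library except IL-13 library 6, at 0.7 TPM.

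All libraries come from EPC2, 1 line of human esophageal epithelial cells immortalised with telomerase and labelled wild type. RNA was measured in cells grown flat as a monolayer before seeding (day 0, 10 libraries), in 3D spheroids grown in Matrigel to day 3 (D3, 9 libraries), and in spheroids at day 11 without cytokine (7 libraries) or with interleukin 13 at 20 ng/ml from day 3 (IL-13, 6 libraries). Spheroids grew in keratinocyte serum-free medium with added calcium chloride. The labels place the libraries in 2 independent experiments, batch 1 and batch 2, and the comparisons ask how expression differs between flat culture and young spheroid, young and mature spheroid, and mature spheroids with and without IL-13. Values are TPM, a transcript's share of the library scaled to a fixed total, which divide by transcript length and by the library total, so depth is unknown and each value is a share. Fewer cells of a type and less RNA per cell cannot be told apart in such bulk samples. Nothing in the labels says that libraries of a group came from separate cultures, so p-values measure the spread between these libraries, which may be technical.

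Cholesterol is built from acetyl-CoA. Cytosolic thiolase and synthase steps lead to mevalonate, kinases and a decarboxylase make isoprenoid units, these are joined to squalene, and a long series of oxidations and reductions turns the cyclised product lanosterol into cholesterol. The transcription factors SREBP-1 and SREBP-2, encoded by SREBF1 and SREBF2, are held in the endoplasmic reticulum by INSIG proteins when sterol is plentiful, and are released to raise transcription of both pathways when it is scarce. In stratified squamous epithelium, lipid synthesis serves dividing cells, and the outer layers also need sterols and long fatty acids for their barrier.

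RefSeq promoter windows of 300 bases (250 before and 50 after each start, GRCh38.p14) were found for 27 of the 31 genes, 37 windows in all. On either strand, with overlapping matches counted, the sterol regulatory element core TCACNCCAC was present in 1 member window, that of SREBF2 (1.13% of all 35116 windows). The NF-Y box CCAAT was in 25 of the 37 (34.6% of all windows), and the Sp1 box GGGCGG in 33 (45.0% of all windows). The stretches below are from a transcription factor that holds the sterol element, from 2 enzymes that fell in spheroids and from the enzyme with the largest rise. They are shown 5′ to 3′ on the gene's strand and end before the first annotated start, with matches to the 3 motifs in capitals. SREBF2 is at chr22:41832945-41833078 (plus strand), MVD at chr16:88663162-88663291 (minus strand), LSS at chr21:46228825-46228974 (minus strand) and TM7SF2 at chr11:65111712-65111844 (plus strand).
SREBF2: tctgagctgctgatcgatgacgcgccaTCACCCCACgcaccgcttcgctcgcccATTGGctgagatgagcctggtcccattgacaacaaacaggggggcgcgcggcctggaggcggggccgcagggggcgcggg
MVD: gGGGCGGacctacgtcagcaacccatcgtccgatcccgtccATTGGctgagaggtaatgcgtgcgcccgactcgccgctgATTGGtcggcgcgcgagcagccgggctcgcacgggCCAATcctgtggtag
LSS: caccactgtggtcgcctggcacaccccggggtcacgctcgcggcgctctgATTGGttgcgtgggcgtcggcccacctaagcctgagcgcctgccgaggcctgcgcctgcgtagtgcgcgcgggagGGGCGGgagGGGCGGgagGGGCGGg
TM7SF2: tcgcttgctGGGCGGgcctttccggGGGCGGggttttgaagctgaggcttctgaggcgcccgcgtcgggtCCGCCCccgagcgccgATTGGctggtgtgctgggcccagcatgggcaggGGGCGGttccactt
In the SREBF2 stretch, the sterol element core begins 133 bases before the RefSeq start. The TM7SF2 stretch holds 4 Sp1 boxes and 1 NF-Y box, the LSS stretch 3 and 1, and the MVD stretch 1 and 3. These matches describe the letters of the windows, and binding was not measured.

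Expression of most of these genes was highest in monolayers and lowest in day 11 spheroids. The 18 sterol pathway enzymes together (ACAT2 included) held 1299 to 2225 TPM in monolayers, 882.8 to 1063 in D3 spheroids, 788.7 to 908.6 in untreated day 11 spheroids and 751.1 to 810.7 with IL-13. The 8 fatty acid genes together held 2024.5 to 3175.5 TPM, 2166.2 to 2807.3, 1082 to 1352 and 1168 to 1330.0 in the same order. The sterol enzymes lay lower at D3 and day 11 than in every monolayer, D3 and untreated day 11 libraries overlapped, and the summed fatty acid genes of D3 spheroids overlapped those of monolayers. The sterol enzymes held 0.166 to 0.235% of the TPM outside mitochondrially encoded transcripts at D3 and 0.0996 to 0.118% in untreated day 11 spheroids. On this scale D3 and untreated day 11 libraries did not overlap. SCD, which puts the first double bond into saturated fatty acyl chains, was the most abundant member and made up 41.8 ± 2.73% (SD, n = 10) of the members' TPM in monolayers, 52.3 ± 1.89% (n = 9) at D3, 48.0 ± 1.69% (n = 7) in untreated and 49 ± 1.61% (n = 6) in IL-13 spheroids.

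**Figure D1:**
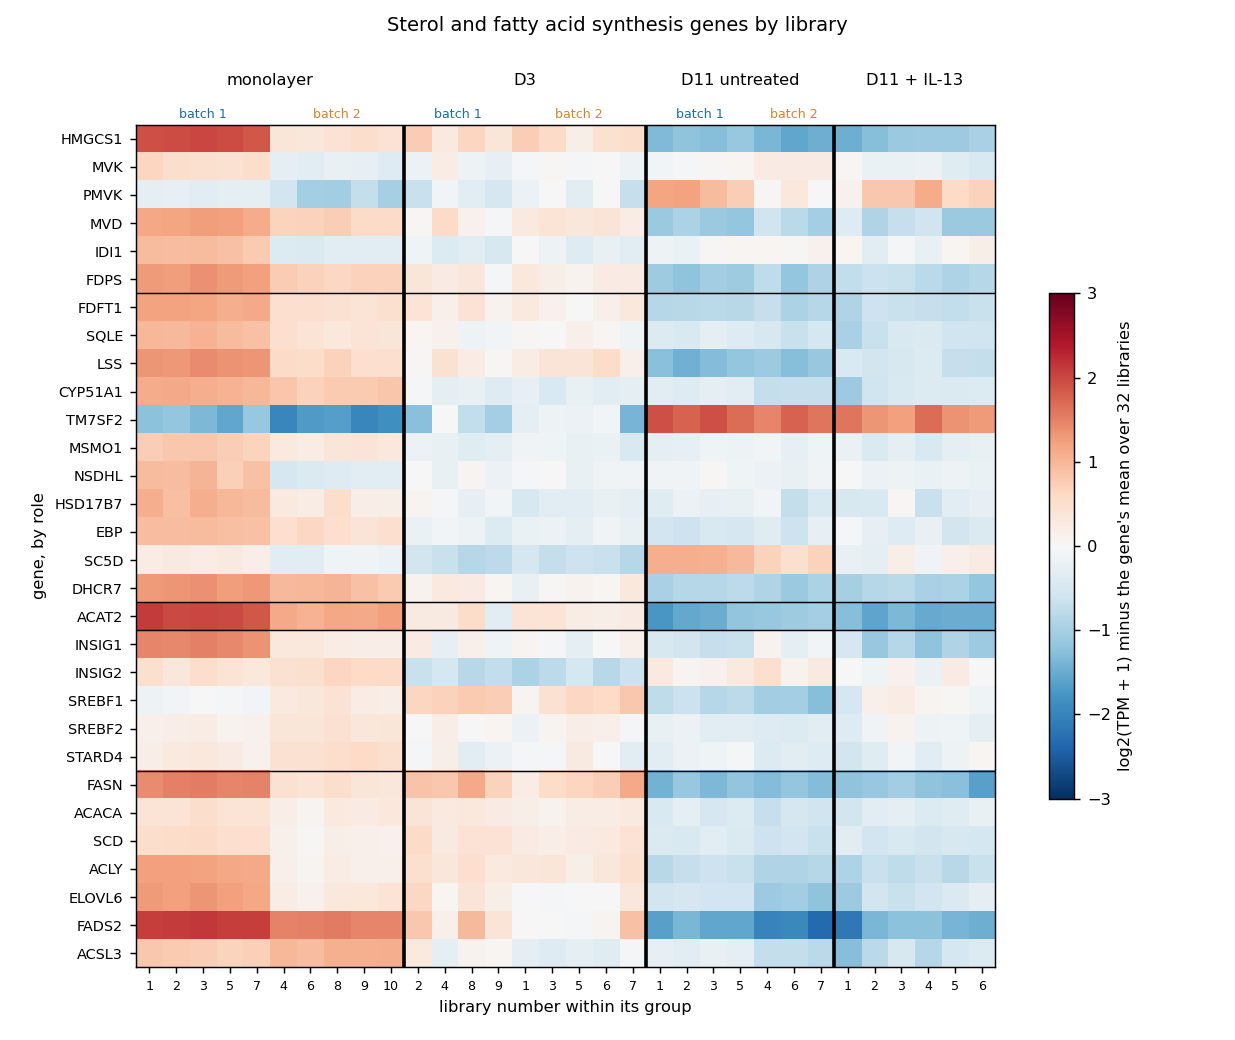
Level of the 30 tested genes (rows, ordered by role) in each of the 32 libraries (columns, by group and batch), as log2(TPM + 1) minus the gene's own mean. Monolayers are red for most genes and untreated day 11 spheroids blue, while TM7SF2, PMVK and SC5D show the opposite order, and for most genes the 5 monolayers of batch 1 are redder than the 5 of batch 2.

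Some libraries stand apart. The monolayers of the 2 experiments differed: summed sterol enzymes lay at 2053 to 2225 TPM in batch 1 and 1299 to 1339 in batch 2, with no overlap, and MKI67, a proliferation marker, at 217.9 to 237.3 and 118.1 to 136.2. D3 libraries formed 2 sets by the envelope precursor SPRR1A: numbers 2, 7, 8 and 9 held 190.7 to 559.8 TPM, and the other 5 held 3931 to 4769. Libraries 4 (batch 1) and 7 (batch 2) lay in the set opposite to the rest of their batch. IL-13 library 1 held 26850 TPM SPRR1A, within the untreated range and above the 12033 to 17111 of the other 5. The share of TPM from the mitochondrial genome was 47.6 ± 2.0% (SD) for monolayers, 47.8 ± 7.27% at D3, 21.9 ± 3.98% in untreated and 21.0 ± 4.75% in IL-13 spheroids. Results by batch, without D3 libraries 4 and 7, without IL-13 library 1 and with mitochondrial genes removed are given below. The causes of these features were not tested.

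**Figure D2:**
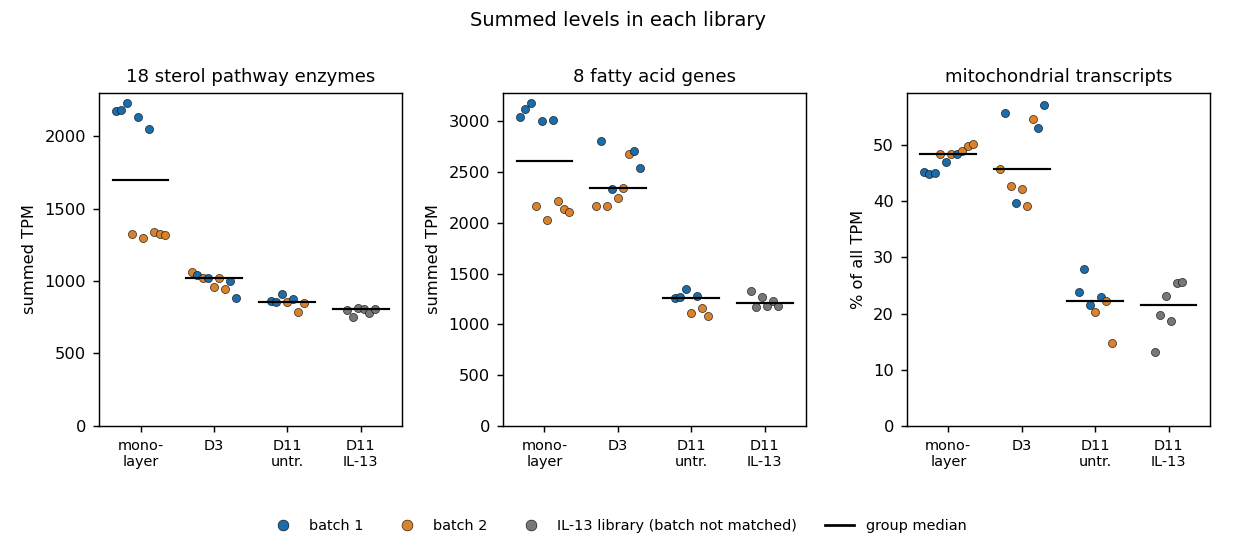
Summed TPM of the 18 sterol pathway enzymes and the 8 fatty acid genes, and the percent of TPM from mitochondrially encoded transcripts, in each library (points, coloured by batch; lines are group medians). Sterol enzymes fall into 2 separate levels in monolayers, 1 for each batch, and lie between 751.1 and 1063 TPM in every spheroid library.

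Each comparison was tested in 1 limma fit of all 12221 genes, on log2(TPM + 1) with batch as a term, and p-values were adjusted over all genes (Benjamini-Hochberg), with calls made under 0.05. The comparisons share libraries and are not independent of each other. Changes are later minus earlier, or treated minus untreated, ± SE, and day 11 stands for untreated spheroids unless IL-13 is named. From monolayer to D3, 2 of the 30 tested genes rose (12.7% of all genes tested) and 23 fell (68.2% of all genes). The share that fell is near the background: the median change was -0.65 for the members and -0.44 for all genes. When libraries were rescaled by median of ratios, which moves the all-gene median by 0.43 to -0.0052, 8 members were higher and 9 lower. Of all 12221 genes, 4061 were then higher and 4050 lower, so both member shares lay near the background. The 8 higher members were MVK, PMVK, TM7SF2, SREBF1, SREBF2, FASN, ACACA and SCD. The 9 lower members were ACAT2, CYP51A1, MSMO1, HSD17B7, EBP, DHCR7, INSIG2, FADS2 and ACSL3, and the other 14 falls of this interval were lost or turned. From D3 to untreated day 11, 4 members rose (33.6% of all genes) and 20 fell (35.8% of all genes), with medians of -0.46 and -0.02. After rescaling, 4 members rose and 18 fell, against 4617 and 4315 of all 12221 genes. From monolayer to untreated day 11, 3 members rose (21.0% of all genes) and 25 fell (63.5% of all genes), with medians of -1.18 and -0.48. After rescaling, which moves the all-gene median by 0.48, 5 members rose and 20 fell, against 4902 and 4915 of all 12221 genes. Without D3 libraries 4 and 7, the first 2 comparisons gave 2 and 22, and 4 and 20. With mitochondrial genes removed and TPM recomputed, 26 members were lower and 4 higher from D3 to day 11, against 8018 and 1663 of 12208 genes. The member median moved from -0.46 to -1.06 and the all-gene median from -0.02 to -0.51, so part of the shift was shared by all genes. From monolayer to day 11 in this setting, 27 members were lower and 3 higher, against 9611 and 1479 of 12208 genes.

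**Figure D3:**
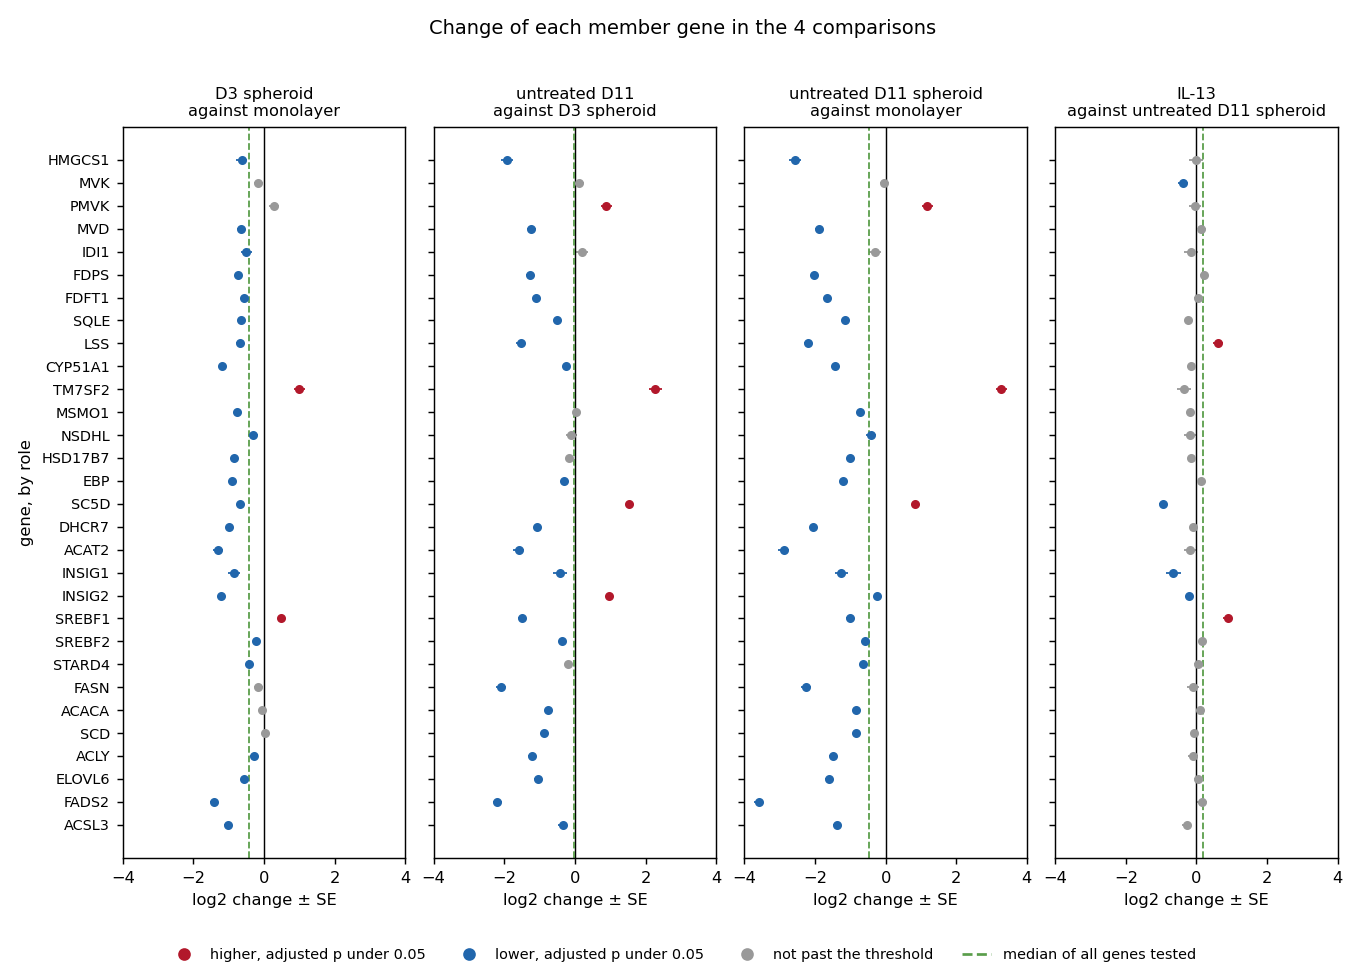
Difference of log2(TPM + 1) with its SE for each tested gene in the 4 comparisons, red where higher and blue where lower at an adjusted p under 0.05, grey otherwise. The dashed line is the median of all 12221 genes, -0.44, -0.02, -0.48 and 0.19 from left to right, and TM7SF2 lies to the right of it in the first 3 panels, against most members.

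From monolayer to day 11, 3 of the 6 mevalonate genes fell (63.5% of all genes), 1 rose (21.0% of all genes) and 2 did not pass the test. After rescaling, 2 rose and 3 fell. ACAT2, the cytosolic thiolase that joins acetyl-CoA units ahead of this pathway, lay at 45.2, 66.1 and 94.4 TPM (lowest, median and highest, the order used for every gene) in monolayers, 17, 25.7 and 31.9 at D3 and 5.6, 8.8 and 10.0 in untreated day 11 spheroids. The 3 groups did not overlap, and the change from monolayer to day 11 was -2.89 ± 0.15 (limma adjusted p = 1.7e-17). HMGCS1, hydroxymethylglutaryl-CoA synthase, which makes the precursor of mevalonate, lay at 119.7, 242 and 384 TPM in monolayers, 107.6, 137 and 161 at D3 and 31.7, 37.0 and 42.4 at day 11. Its D3 and day 11 libraries did not overlap (change -1.92 ± 0.18, adjusted p = 7.2e-11), nor did monolayers and day 11 (-2.56 ± 0.17, adjusted p = 1.6e-14). Monolayers and D3 overlapped, with batch 2 monolayers at 119.7 to 137 TPM and batch 1 monolayers at 346 to 384.

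The kinases that follow took other courses. MVK, mevalonate kinase, lay at 13.2, 19.7 and 27.8 TPM in monolayers, 14.5, 17.1 and 20.7 at D3 and 16.5, 18.3 and 21.1 at day 11, with overlap throughout. It did not pass the test in any of the 3 comparisons (adjusted p = 0.19, 0.36 and 0.81), and its change from monolayer to day 11 was -0.53 in batch 1, 0.54 in batch 2 and 0.53 over both after rescaling. PMVK, which adds the second phosphate, measured 5.2, 8.4 and 9.7 TPM in monolayers, 6.9, 9.1 and 11.9 at D3 and 11.8, 20.1 and 28.5 at day 11. Every untreated day 11 library lay above every monolayer, while D3 and day 11 met at their edges, and the gene rose from D3 to day 11 by 0.89 ± 0.15 (adjusted p = 5.9e-06), by 1.42 in batch 1 and 0.36 in batch 2. Alone in batch 2, that rise did not pass the threshold (adjusted p = 0.057).

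Below the kinases, MVD, the decarboxylase, fell at each step, from 54.8, 71.0 and 87.6 TPM in monolayers to 35.2, 44.7 and 54.7 at D3 and 15.8, 17.6 and 23.9 at day 11. None of these ranges overlapped, although the highest D3 library lay just under the lowest monolayer, and its fall to D3 (-0.66) was lost after rescaling (-0.12, adjusted p = 0.42). FDPS, which makes farnesyl diphosphate for sterols and for protein prenylation, fell from 103.8, 135 and 175 TPM to 65.3, 79.5 and 86.3 and then 28.6, 31.5 and 38.8 (monolayer to day 11, -2.03 ± 0.09, adjusted p = 1.1e-18). Its fall to D3 (-0.75) was also lost after rescaling (-0.22, adjusted p = 0.07). IDI1, the isomerase between them, did not pass the test from monolayer to day 11 (adjusted p = 0.094). Its day 11 libraries, at 79.1, 92.9 and 99.2 TPM, lay within the monolayer range of 66.2 to 177, and from monolayer to day 11 the batches gave -0.97 and 0.44.

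Of the 11 genes from squalene to cholesterol, 9 fell (63.5% of all genes) and 2 rose (21.0% of all genes) from monolayer to day 11. After rescaling, 7 fell and 2 rose. The 3 that lead to lanosterol fell at both steps, but after rescaling the first fall was lost for FDFT1 (-0.58 to -0.04, adjusted p = 0.71), SQLE (-0.66 to -0.12, adjusted p = 0.14) and LSS (-0.67 to -0.13, adjusted p = 0.35). FDFT1, squalene synthase, lay at 75.4, 100.5 and 130.3 TPM in monolayers, 56.1, 62.9 and 76.2 at D3 and 28.7, 31 and 34.3 at day 11 (monolayer to day 11, -1.67 ± 0.09, adjusted p = 4.2e-17). SQLE, the squalene epoxidase, a rate-limiting enzyme, went from 91.2, 119 and 150.3 TPM to 65.8, 75.0 and 81.0 and then 45.3, 52.7 and 59.2, with no overlap between groups (-1.16 ± 0.09, adjusted p = 9.4e-14). LSS, which closes the sterol ring system, lay at 45.7, 66.4 and 87.0 TPM, then 32.7, 37.8 and 47.6, then 11.2, 12.9 and 14.5 (-2.20 ± 0.12, adjusted p = 8.8e-17). D3 and day 11 libraries did not overlap for any of the 3.

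The enzymes that turn lanosterol into cholesterol split. CYP51A1, the lanosterol demethylase, dropped in the first days, from 101.3, 117 and 137 TPM in monolayers to 44.5, 50.2 and 60.1 at D3 (-1.19 ± 0.07, adjusted p = 9.2e-16), and its day 11 range of 37.3 to 50.8 overlapped that of D3. EBP, the sterol isomerase, likewise dropped before D3, from 153.5, 199 and 228 TPM to 88.4, 103 and 112. At day 11 it lay at 76.1, 83.1 and 99.1. Both genes fell further from D3 to day 11, CYP51A1 by -0.24 ± 0.08 (adjusted p = 0.0074) and EBP by -0.30 ± 0.09 (adjusted p = 0.0027). The later fall of EBP did not pass after rescaling (-0.24, adjusted p = 0.055), nor that of CYP51A1 in batch 1 alone (-0.10, adjusted p = 0.25). MSMO1, which starts removal of the extra methyl groups, moved from 239, 296 and 361 TPM to 148, 177 and 190.0 and then stood at 169, 184 and 193. Its change from D3 to day 11 did not pass the test (0.041, adjusted p = 0.65), but depended on the scaling. It was -0.56 with mitochondrial genes removed (adjusted p = 1.6e-08), -0.33 after quantile normalization and -0.26 with library weights. DHCR7, a reductase that completes cholesterol, fell over both intervals, from 63.1, 81.0 and 95.1 TPM to 31.1, 38.7 and 45.5 and then 16.1, 18.8 and 20.7 (D3 to day 11, -1.06 ± 0.07, adjusted p = 2.3e-14).

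NSDHL and HSD17B7 act with MSMO1 in removing methyl groups, and both were low. NSDHL lay at 4.1, 7.9 and 13.8 TPM in monolayers and between 5.2 and 6.7 in every D3 and untreated day 11 library. Its fall from monolayer to D3 (-0.32 ± 0.14, adjusted p = 0.037) was -0.98 in batch 1 and 0.30 in batch 2, turned to 0.15 after rescaling, and was lost without D3 libraries 4 and 7 together (adjusted p = 0.079) or without any 1 of 9 single libraries (monolayers 1, 2, 3, 5 and 7, D3 2, 4, 8 and 9). Its monolayers held 11.0 to 13.8 TPM in batch 1 and 4.1 to 4.8 in batch 2. HSD17B7, which has a near-identical pseudogene copy and is therefore uncertain, lay at 4.4, 6.9 and 9.1 TPM in monolayers and 1.9 to 4.1 in D3 and untreated day 11 libraries.

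TM7SF2, PMVK and SC5D rose from monolayer to day 11, and the first and the last act in the same late stretch. TM7SF2, a sterol reductase that acts straight after CYP51A1, lay at 6.1, 8.0 and 11.5 TPM in monolayers, 9.5, 21.4 and 26.7 at D3 and 74.9, 92.0 and 104.2 in untreated day 11 spheroids. The lowest day 11 library was above the highest D3 library, and the rise from monolayer to day 11 was 3.28 ± 0.17 (adjusted p = 2.0e-17), 3.12 in batch 1 and 3.44 in batch 2. At D3 it followed the 2 sets of libraries, with 9.5 to 15.4 TPM where SPRR1A was low and 21.4 to 26.7 where it was high. Its annotated span overlaps VPS51 on the same strand, so shared reads cannot be told apart here. SC5D, the desaturase just before DHCR7, first fell and then rose, from 44.6, 59.0 and 69.4 TPM to 30.8, 35.5 and 40.1 and then 80.2, 113 and 122. None of its 3 ranges overlapped. The fall to D3 (-0.69) was lost after rescaling (-0.16, adjusted p = 0.053), and the rise from D3 to day 11 was 1.53 ± 0.09 (adjusted p = 2.2e-15).

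On hg38 (GENCODE 29), TM7SF2 is at chr11:65111845-65116384, SC5D at chr11:121292453-121308694, HMGCS1 at chr5:43289395-43313512, LSS at chr21:46188141-46228824, SREBF1 at chr17:17810399-17837002 and FADS2 at chr11:61792980-61867354.

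**Figure D4:**
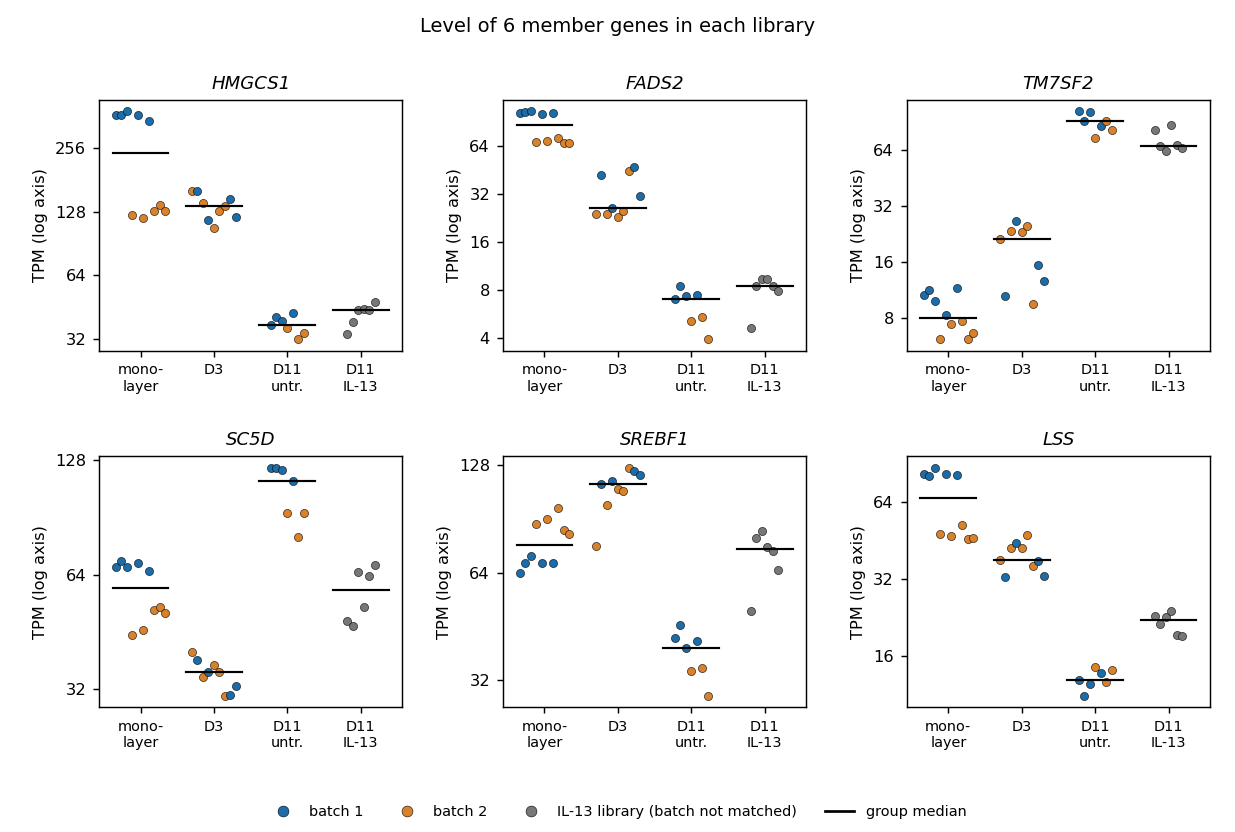
TPM of 6 genes in each library (points, coloured by batch; lines are group medians; log axis with its own range for each gene). HMGCS1, FADS2 and LSS fall from monolayer to day 11, TM7SF2 climbs from 6.1 to 11.5 TPM to 74.9 to 104.2, SC5D dips at D3, and SREBF1 peaks at D3 and is higher with IL-13 than without.

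All 5 regulators and carriers fell from monolayer to day 11 (63.5% of all genes). Only 2 of them were lower and 1 higher after rescaling, and at D3 they differed in direction. SREBF1, which encodes the SREBP-1 forms, lay at 63.7, 76.6 and 97.1 TPM in monolayers, rose at D3 to 75.9, 113 and 126 (0.49 ± 0.10, adjusted p = 8.1e-05, but 0.21 in batch 2 alone, adjusted p = 0.096) and fell in untreated day 11 spheroids to 29, 39.3 and 45.6 (-1.51 ± 0.11, adjusted p = 7.2e-13). Untreated day 11 libraries lay below all libraries of both earlier groups. SREBF2, which encodes the more sterol-directed SREBP-2, spanned only 26.9 to 49.5 TPM over monolayers, D3 and untreated day 11, with medians of 43.9, 37.2 and 28.0. At D3 it was lower (-0.22 ± 0.06, adjusted p = 0.0014), a call lost in batch 1 alone (-0.11, adjusted p = 0.11), and higher after rescaling (0.31, adjusted p = 4.3e-06). Its fall from monolayer to day 11 (-0.58 ± 0.07, adjusted p = 1.5e-09) compares with -0.48 for the median gene, and after rescaling the change was -0.0017.

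INSIG1, itself a classical SREBP target, lay at 70.6, 118 and 177 TPM in monolayers, 50.5, 61.3 and 72.7 at D3 and 37.3, 43.8 and 65.6 at day 11. Its fall from monolayer to day 11 was -2.05 in batch 1 and -0.35 in batch 2, a difference of 1.70 ± 0.14 (adjusted p = 3.3e-09). Its fall from D3 to day 11 (-0.42 ± 0.19, adjusted p = 0.046) was lost without any 1 of 10 single libraries (D3 1, 2, 3, 6, 7 and 8, untreated day 11 1, 2, 3 and 5), with adjusted p from 0.057 to 0.11, and after rescaling (adjusted p = 0.12). INSIG2, its less sterol-responsive relative, took another course, from 11.6, 13.2 and 15.0 TPM in monolayers to 4.3, 5.1 and 6.1 at D3 and back to 9.7, 11.2 and 13.1 at day 11. The D3 libraries lay below all others (monolayer to D3 -1.21 ± 0.07, adjusted p = 1.4e-16, and D3 to day 11 0.96 ± 0.07, adjusted p = 6.4e-13). From monolayer to day 11 it was lower (-0.24 ± 0.07, adjusted p = 0.0022) but higher after rescaling (0.31, adjusted p = 6.3e-04). STARD4, a soluble sterol carrier, had medians of 84.8, 62.9 and 51.3 TPM and fell from monolayer to day 11 by 0.63 (SE 0.09, adjusted p = 1.8e-07), a change of -0.04 after rescaling.

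All 7 tested fatty acid genes fell from D3 to day 11 (35.8% of all genes). The same 7 fell after rescaling, against 4315 of all 12221 genes. FADS2, the desaturase that opens the path to polyunsaturated fatty acids, lay at 67.2, 87.1 and 106.0 TPM in monolayers, 23.1, 26.3 and 47.0 at D3 and 3.9, 7.0 and 8.5 in untreated day 11 spheroids. The groups did not overlap, and the fall from monolayer to day 11 was the largest among the members (-3.60 ± 0.12, adjusted p = 8.7e-22), -3.62 in batch 1 and -3.60 in batch 2. At D3 it ran against TM7SF2, with 30.9 to 47.0 TPM in the 4 libraries low in SPRR1A and 23.1 to 26.3 in the other 5. FADS2 overlaps FADS1 on the other strand and FEN1 on its own, and the handling of strand is not given in the sources used here, so its reads and theirs cannot be told apart.

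FASN, the fatty acid synthase itself, lay at 306, 495 and 693 TPM in monolayers, 282, 399.6 and 532 at D3 and 89.0, 96.5 and 108 at day 11. Monolayers and D3 overlapped, D3 and day 11 did not (change -2.08 ± 0.14, adjusted p = 7.5e-14). ACLY, which supplies cytosolic acetyl-CoA from citrate, followed with 26.2, 42.2 and 59.9 TPM, then 28.3, 31.8 and 35.4, then 12.8, 13.4 and 15.8 (D3 to day 11, -1.21 ± 0.12, adjusted p = 1.8e-10). Its earlier fall (-0.28 ± 0.11, adjusted p = 0.019) was lost without D3 library 9 (adjusted p = 0.051), and turned to 0.25 after rescaling and 0.19 in batch 2 alone. ACACA, the carboxylase that commits acetyl-CoA to fatty acids, was low throughout, at 3.8 to 5.5 TPM in monolayers, 3.9 to 4.9 at D3 and 1.8 to 2.7 at day 11.

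SCD had medians of 1936 TPM in monolayers (1571 to 2274) and 1869 at D3 (1737 to 2266), which did not differ by the test (adjusted p = 0.57). It was higher at D3 after rescaling (0.57, adjusted p = 7.2e-08) and in batch 2 alone (0.15, adjusted p = 0.04). SCD then fell to 957.3, 1117 and 1218 at day 11 (D3 to day 11, -0.88 ± 0.05, adjusted p = 9.4e-15). ELOVL6, which lengthens palmitate, lay at 5.1, 9.0 and 12.9 TPM, then 4.4, 4.8 and 7.6, then 1.4, 2.7 and 2.9. ACSL3, which activates fatty acids at lipid droplets, fell mainly before D3, with 23.9, 27.6 and 32.1 TPM in monolayers, 10.9, 11.9 and 18.1 at D3 and 8.0, 11.5 and 12.3 at day 11. Like CYP51A1, EBP, MSMO1 and HSD17B7, ACSL3 had overlapping ranges at D3 and day 11 and separate ranges at D3 and in monolayers. With library weights its change from D3 to day 11 turned from -0.35 to 0.09.

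The 2 experiments gave different sizes of change against monolayers. The difference between batches passed the test for 25 of 30 members from monolayer to D3 (45.2% of all genes), for 4 from D3 to day 11 (23.8% of all genes) and for 21 from monolayer to day 11 (48.3% of all genes). The median member change from monolayer to D3 was -0.98 in batch 1 and -0.31 in batch 2, against -0.46 and -0.40 for all genes. HMGCS1 had the largest difference among the members: -1.43 in batch 1 and 0.07 in batch 2, a difference of 1.50 ± 0.13 (adjusted p = 6.1e-09). Of the 25 members, 20 changed less in batch 2. The difference had the opposite sign for ACSL3 (-0.59), SREBF1 (-0.58) and SREBF2 (-0.22). From D3 to day 11 the members' medians were -0.50 and -0.53, against 0.05 and -0.12 for all genes, and the 4 members whose changes differed were PMVK, SC5D, INSIG1 and CYP51A1. With D3 libraries 4 and 7 left out, these counts were 22, 7 and 23 (48.4, 39.5 and 54.3% of all genes). MKI67 also differed between the monolayers of the batches, as given above, and its part in these differences was not tested.

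**Figure D5:**
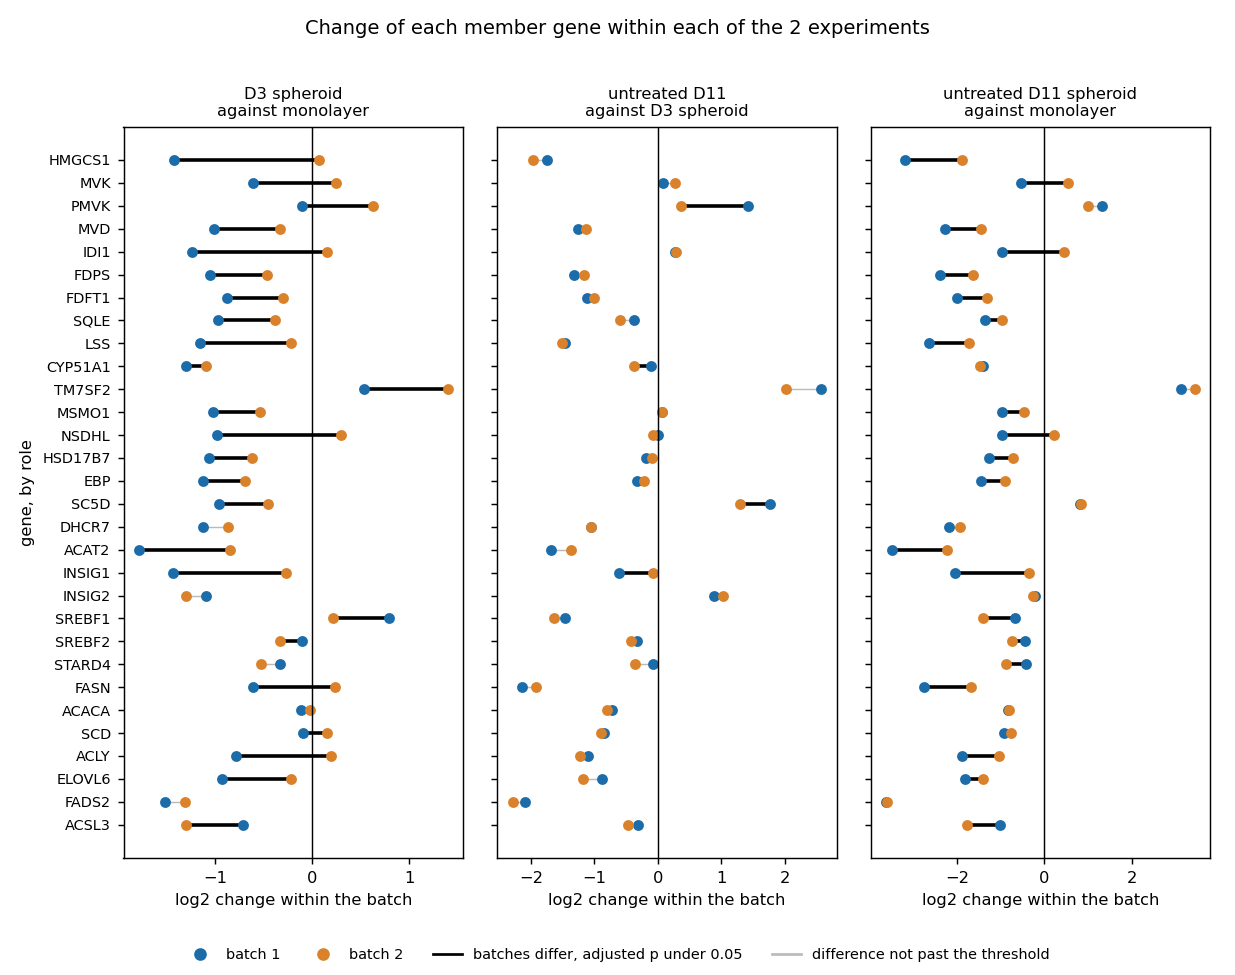
Change in log2(TPM + 1) of each tested gene within batch 1 and within batch 2, joined by a black line where the difference between batches passed an adjusted p of 0.05. Lines are long in the panels that involve monolayers, as for HMGCS1, IDI1 and NSDHL, and shorter for most genes from D3 to day 11, with PMVK the longest there (1.42 and 0.36).

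With IL-13, 24 of the 30 members did not pass the test against untreated spheroids. LSS and SREBF1 were higher, 2 of 30 (39.2% of all genes), SC5D, MVK, INSIG1 and INSIG2 were lower, 4 of 30 (8.49% of all genes), and the median change was -0.10 for members and 0.19 for all genes. After rescaling, which moves the all-gene median by -0.19, 2 members were higher and 13 lower, against 2348 and 2521 of all 12221 genes. Those 13 were SC5D, MVK, INSIG1 and INSIG2, with SQLE, CYP51A1, TM7SF2, MSMO1, HSD17B7, DHCR7, STARD4, SCD and ACSL3 added. The IL-13 columns could not be matched to single samples, so each carried 1 of 6 as its share of batch 2, and no test within a batch was possible.

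LSS was higher with IL-13: its libraries held 23.0, 21.4, 22.8, 23.9, 19.4 and 19.1 TPM in order of number, against 12.9, 11.2, 12.5, 14.5, 13.7, 12.7 and 14.1 untreated. The groups did not overlap (0.62 ± 0.14, adjusted p = 5.1e-04), but after quantile normalization the difference of 0.35 did not pass (adjusted p = 0.055). SREBF1 was higher as well, at 50.1, 80.0, 83.6, 75.6, 73.4 and 65.0 TPM against 29 to 45.6 (0.88 ± 0.13, adjusted p = 2.1e-06). Library 1 had the lowest of the 6 IL-13 values, which still lay above all untreated libraries. The D11 IL-13 level of SREBF1 was thus within the monolayer range of 63.7 to 97.1 in 5 of 6 libraries.

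SC5D was lower with IL-13, at 48.3, 47.0, 65.2, 52.8, 63.7 and 67.7 TPM against 80.2 to 122 untreated, with no overlap (-0.95 ± 0.10, adjusted p = 7.2e-09). INSIG1 was lower too, at 26.1 to 42.9 TPM against 37.3 to 65.6 (-0.65 ± 0.21, adjusted p = 0.012, lost with library weights at 0.066), and the groups overlapped through IL-13 library 1, its highest. In untreated spheroids INSIG1 lay at 37.3 to 43.8 TPM in batch 1 and 49.6 to 65.6 in batch 2. Monolayers had the opposite order, at 158.4 to 176.7 and 70.6 to 76.9 TPM. The fit held 1 batch term for all groups, which cannot follow both orders, so the size of the INSIG1 difference is uncertain. Means were 31.7 TPM with IL-13, and 40.0 and 57.6 in untreated spheroids of batches 1 and 2. MVK, at 12.4 to 17.9 against 16.5 to 21.1 TPM, was lower by 0.39 (SE 0.14, adjusted p = 0.024), a call lost without untreated library 7 or IL-13 library 5 or 6. The call was also lost without the batch term (-0.33, adjusted p = 0.069) and with library weights (-0.23, adjusted p = 0.087). Untreated MVK lay at 16.5 to 18.3 TPM in batch 1 and 20.9 to 21.1 in batch 2. Its monolayers lay at 24.5 to 27.8 and 13.2 to 14.9, so the shared batch term has the same limit for MVK. INSIG2, at 7.9 to 11.1 against 9.7 to 13.1 TPM, was lower by 0.20 (SE 0.08, adjusted p = 0.037), a call lost without any 1 of untreated 1, 4 and 5 or IL-13 2, 4 and 6. This INSIG2 call was also lost with mitochondrial genes removed (adjusted p = 0.085), with only the 2 groups compared (0.11) and with library weights (0.064). Without IL-13 library 1, 5 members were higher and 4 lower, with SREBF2 (0.22, adjusted p = 0.012), ACACA (0.13, adjusted p = 0.038) and FADS2 (0.29, adjusted p = 0.05) added.

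Other genes of the same pathways, in lists fixed with earlier results known, were read against the same shares of all genes (from monolayer to day 11, 21.0% higher and 63.5% lower). The shares lower in 3 of the lists, 12 of 17, 13 of 21 and 16 of 27, lay near that background. Of 17 tested enzymes of sterols and isoprenoids outside the members, 5 rose and 12 fell from monolayer to day 11 (median -0.78; 7 and 9 after rescaling). ERG28, a scaffold of the demethylation complex, went from 35.4 ± 12.2 to 5.94 ± 2.11 TPM (-2.39 ± 0.20, adjusted p = 2.1e-12), and TMEM97, a sterol-binding membrane protein, from 46.5 ± 28.9 to 8.49 ± 1.13 (-2.10 ± 0.22). FNTA, a subunit of protein prenyltransferases, rose from 9.89 ± 1.18 to 18 ± 1.74 TPM (0.82 ± 0.07). With IL-13, 6 of the 17 were higher and 0 lower (2 and 3 after rescaling), near the 39.2% of all genes that were higher. Of 18 genes for SREBP processing and sterol-regulated degradation, 2 rose and 15 fell from monolayer to day 11 (7 and 9 after rescaling). ERLIN2, which helps remove membrane proteins of the endoplasmic reticulum, went from 29.4 ± 1.55 to 11.8 ± 4.23 TPM (-1.35 ± 0.13).

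Of 21 tested genes of sterol uptake, transport, esterification and efflux, 7 rose and 13 fell from monolayer to day 11, a balance that turned to 11 and 9 after rescaling. VLDLR, a lipoprotein receptor, rose from 7.21 ± 3.19 to 30.1 ± 2.02 TPM (2.06 ± 0.17, adjusted p = 7.6e-13), and ABCG1, a sterol exporter, from 0.73 ± 0.713 to 7.76 ± 0.916 (2.50 ± 0.16). NCEH1, a cholesteryl ester hydrolase, fell from 11.0 ± 0.631 to 1.01 ± 0.09 TPM (-2.58 ± 0.07). Of 27 other fatty acid genes, 10 rose and 16 fell from monolayer to day 11 (12 and 13 after rescaling). ELOVL4, which makes the very long chains of barrier lipids, rose from D3 to day 11 from 2.82 ± 0.452 to 18.6 ± 2.08 TPM (2.34 ± 0.07, adjusted p = 1.1e-21) and was lower with IL-13, at 7.45 ± 1.1 (-1.24 ± 0.08, adjusted p = 3.4e-13). DGAT2, which makes triglyceride, rose from 1.13 ± 0.216 in monolayers to 8.96 ± 1.23 at day 11 (2.22 ± 0.13).

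Cell division and squamous differentiation moved over the same intervals. All 18 cell cycle genes set beside the members fell from D3 to day 11 (35.8% of all genes), and MKI67 went from 74.2 ± 28.2 to 1.01 ± 0.267 TPM. All 18 tested squamous differentiation genes rose from monolayer to day 11 (21.0% of all genes), with a median of 7.57. Keratin transcripts went from 3.03 ± 0.296% to 15.8 ± 2.14% of the TPM. From D3 to day 11, 16 differentiation genes rose (33.6% of all genes) and 2 fell, KRT13 (-2.24 ± 0.275) and KRT4 (-1.74 ± 0.314). With IL-13, 8 of 18 cell cycle genes were higher (39.2% of all genes) and 0 lower (4 and 0 after rescaling). Of the 18 differentiation genes, 5 were higher (39.2% of all genes) and 6 lower (8.49% of all genes). The part of either in the members' changes was not tested.

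The 6 markers of esophageal squamous epithelium (KRT5, KRT14, KRT15, TP63, KRT4 and KRT13) all passed the filter and summed to 19052 TPM or more in each library. KRT4 and KRT13 were a small part of that sum in untreated day 11 spheroids. They lay there at 15.6 ± 2.14 and 11.4 ± 2.89 TPM, against a sum of 46024 to 70423. Markers of other cell types were few. No hepatocyte or columnar, goblet and ciliated marker was tested, and each of these lists summed to at most 1.4 TPM in any library, with 1 of 5 and 2 of 6 markers at 0 throughout. Of 12 sebocyte and adipocyte markers, FABP4, FADS6 and KRT79 were tested, and the list summed to 1.5 to 5.2 TPM in monolayers, 0.6 to 6.2 at D3, 4.5 to 7.9 in untreated and 3.6 to 6.8 in IL-13 spheroids. Of 6 fibroblast markers only COL1A1 passed, with list sums of 3.3 to 9.5 TPM in monolayers, 8.1 to 30.4 at D3, 58.0 to 78.1 in untreated and 22.0 to 46.9 in IL-13 spheroids. CD68, CD14 and CSF1R of the 7 immune and endothelial markers passed, with sums of 195.5 to 284.6, 221.5 to 267.1, 521.6 to 587.3 and 435.3 to 559.3 TPM in the same order. Their part in the results was not tested.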

How the data were processed

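The authors deposited a single table of TPM values, given to 1 decimal, for 32 libraries. The submitters' processing notes name the build hg38. No source used here names the tools for alignment and quantification, or says how strand was treated. Because TPM sums to a fixed total, more of some abundant transcripts means a smaller share for the rest, and no sequencing depth can be read from it, so precision rests on the spread between libraries.

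Column names led to 1 sample each for 26 columns. The 6 IL-13 columns led only to their group, so each entered with that group's share of batch 2 (1 of 6). Library numbers are those of the columns, and equal numbers do not pair libraries across groups. Within groups, libraries correlated across genes at r = 0.952 to 0.995 with at most 2.47% of values equal, and none was treated as a duplicate.

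The 12221 genes reaching 1 TPM in 6 or more libraries were tested on log2(TPM + 1) with limma 3.58.1 under R 4.3.3, two-sided, in a model of group plus batch over all 32 libraries with the trended variance option. Batch interactions used the 26 libraries of the other groups. Adjustment was by Benjamini-Hochberg over every gene tested (calls under 0.05). Median-of-ratios factors, from 11896 genes, ran from 0.749 to 1.36. Members, gene lists, markers and motifs were chosen with earlier results of these data known. All 31 members are named, and from every other list genes among the 2 largest rises and falls of each comparison. A simulation altered 200 of the 12221 genes: log2 changes of 1 were recovered for 92, 95, 93 and 92% in the order of the 4 comparisons, changes of 0.5 for 78, 67, 71 and 65%, and 7, 14, 5 and 11 unaltered genes were called. Its noise was independent between genes and libraries, with no batch effect and no shift of all genes. These rates therefore do not give the error of the real comparisons.

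Results were recomputed with other pseudocounts, filters, scalings and library sets, without the batch term, by batch, with library weights, with a replicate block and without each library. By GENCODE 29, ACAT2 overlaps TCP1 and SOD2, MVK overlaps MMAB and SREBF1 overlaps RAI1 on opposite strands, so reads of these pairs are uncertain. RefSeq windows were matched by symbol, with none for FASN, SQLE, ACAT2 and FDFT1. Plots used matplotlib 3.10.9 in Python 3.11.15. Of the culture protocol, 1 part is not reported here, nor are some genes that the naming rule picked.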

Additional observations from a re-analysis of the deposited data

Results flagged for a closer look

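In the 4 groups, of 6, 7, 9 and 10 libraries, 121 pairs of gene and group were examined for a library far from the rest by Dixon's criterion, and 4 met it, where chance alone gives about 1 in 20 groups. IL-13 library 1 was the lowest for CYP51A1 at 28.4 TPM (next 40.7), the lowest for FADS2 at 4.6 TPM (next 7.9) and the highest for NSDHL at 6.2 TPM (next 5.5). FADS1 was at 0.7 TPM in IL-13 library 6 and listed at 0 in the other 5.

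The change differed between the 2 experiments (batch 2 minus batch 1, limma adjusted p under 0.05) for 50 pairs of gene and comparison. From monolayer to D3 it differed for TM7SF2 (0.87), ACAT2 (0.94), FASN (0.85), HMGCS1 (1.50), PMVK (0.74), INSIG1 (1.17), ELOVL6 (0.71), ACLY (0.99), SC5D (0.50), FDPS (0.59), ACSL3 (-0.59), MVD (0.69), FDFT1 (0.58), CYP51A1 (0.20), SCD (0.24), SQLE (0.60), HSD17B7 (0.45), EBP (0.44), MVK (0.87), MSMO1 (0.48), NSDHL (1.28), SREBF2 (-0.22), IDI1 (1.39), SREBF1 (-0.58) and LSS (0.94). From D3 to day 11 it differed for PMVK (-1.06), INSIG1 (0.53), SC5D (-0.47) and CYP51A1 (-0.29). From monolayer to day 11 it differed for ACAT2 (1.26), FASN (1.07), HMGCS1 (1.30), INSIG1 (1.70), ELOVL6 (0.42), ACLY (0.86), FDPS (0.74), ACSL3 (-0.75), MVD (0.82), FDFT1 (0.69), SQLE (0.39), HSD17B7 (0.55), EBP (0.55), MVK (1.07), MSMO1 (0.49), NSDHL (1.21), SREBF2 (-0.32), STARD4 (-0.48), IDI1 (1.40), SREBF1 (-0.74) and LSS (0.90).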

How the results depend on the processing

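Over all alternatives, 3472 values of single members were recomputed: 3221 kept their sign and side of the threshold, 84 passed it newly, 72 no longer passed it and 95 changed sign. Of those 95, 37 were called before or after the change, and 58 were called in neither. Where no value is given, the cause was not tested. TPM keeps no depth, so low genes such as ACACA, ELOVL6, NSDHL and HSD17B7 have no counting error here. The IL-13 comparison has no within-batch value.

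Members higher from monolayer to D3 numbered 8 after median-of-ratios rescaling, 6 after quantile normalization and 6 in batch 2 alone, and members lower 9 after rescaling. Members higher from monolayer to day 11 numbered 5, 5 and 6 under the same settings. With IL-13, 1 member was higher after quantile normalization and 7 with library weights, and 13 were lower after rescaling and 11 after quantile normalization. With 1 library left out in turn, members higher and lower ranged from 2 to 3 and 21 to 23 (monolayer to D3), 4 to 4 and 19 to 21 (D3 to day 11), 3 to 3 and 25 to 26 (monolayer to day 11), and 2 to 5 and 3 to 6 (IL-13), with 5 higher without IL-13 library 1. From D3 to day 11, changes differed between batches for 7 members without D3 libraries 4 and 7 (39.5% of all genes) and for 8 after rescaling (15.3% of all genes).

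The sign changes with a call were as follows. From monolayer to D3, rescaling turned MVK to 0.35, IDI1 to 0.023, NSDHL to 0.15, SREBF2 to 0.31, STARD4 to 0.10, FASN to 0.37, ACACA to 0.37 and ACLY to 0.25. Quantile normalization turned MVK to 0.31, NSDHL to 0.18, SREBF2 to 0.20, ACACA to 0.40 and ACLY to 0.16, library weights turned NSDHL to 0.017, and batch 2 alone gave HMGCS1 0.072, MVK 0.25, IDI1 0.15, NSDHL 0.30 and ACLY 0.19. From D3 to day 11, removal of mitochondrial genes turned MVK to -0.44, IDI1 to -0.38 and MSMO1 to -0.56, library weights turned MVK to -0.45, IDI1 to -0.59, MSMO1 to -0.26 and ACSL3 to 0.086, and quantile normalization turned MSMO1 to -0.33. From monolayer to day 11, rescaling turned MVK to 0.53, NSDHL to 0.10 and INSIG2 to 0.31, quantile normalization turned MVK to 0.38, NSDHL to 0.10 and INSIG2 to 0.24, and batch 2 alone gave MVK 0.54, IDI1 0.44 and NSDHL 0.22. With IL-13, rescaling turned STARD4 to -0.20. Rescaling also turned values called in neither setting: IDI1 from monolayer to day 11 (-0.30 to 0.29) and, with IL-13, MVD (0.14 to -0.10), FDPS (0.21 to -0.035), FDFT1 (0.041 to -0.20), EBP (0.14 to -0.11), SREBF2 (0.17 to -0.075), ACACA (0.089 to -0.088), ELOVL6 (0.042 to -0.13) and FADS2 (0.16 to -0.059).

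Over all genes, higher and lower calls were 1556 and 8339 from monolayer to D3 (4061 and 4050 rescaled), 2561 and 7765 from monolayer to day 11 (4902 and 4915 rescaled) and 4785 and 1037 with IL-13 (2348 and 2521 rescaled). With mitochondrial genes removed, they were 1663 and 8018 from D3 to day 11, against 4102 and 4370.

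Equal library numbers are only a number: same-numbered monolayer and D3 libraries had deviations correlated at -0.444 to 0.356 over 9 pairs, and 0 of 9 matched its own number best. For D3 with untreated day 11 these were -0.159 to 0.164, and 1 of 7 matched best. For monolayers with untreated day 11 they were -0.0225 to 0.0556, and again 1 of 7. With a replicate block, members higher and lower were 2 and 23, 4 and 19, and 3 and 26 in the 3 untreated comparisons: IDI1 passed from monolayer to day 11 (-0.45, limma adjusted p = 0.038) and INSIG1 no longer did from D3 to day 11 (-0.48, limma adjusted p = 0.058).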
